A study of Mus musculus with 4 samples.

Results

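Cholesterol in the brain is made locally, because lipoproteins of the blood do not cross the blood-brain barrier. The genes described here cover the enzymes that make it, the SREBP transcription factors that set their transcription, and the proteins that take cholesterol up, move it inside the cell, load it onto lipoproteins or remove it. Members were the rows whose symbol equalled 1 of 36 listed names. Of these, 35 were found among 22609 genes, since Sc4mol and Msmo1 are an older and a newer symbol of 1 gene and the files use the older one. A filter on low counts left 34 of the 35 for testing, out of 14978 genes tested in all.

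RNA came from the hippocampus of C57BL/6 mice of the genotypes FLOXED and PELP1 FBKO, the latter a forebrain knockout of PELP1, a coregulator of the estrogen receptor. Every mouse had been ovariectomized, carried an estradiol (E2) mini pump, was put through global cerebral ischemia (GCI, in which the brain is briefly cut off from its blood supply) and was killed after 24 h of reperfusion. Each genotype had 2 libraries. The comparison asks which hippocampal transcripts depend on the genotype in the injured, estradiol-treated brain. No group without ischemia or without estradiol was analysed here, and the driver of the knockout and the ages of the mice are not given in the sources used here. Whether the 2 libraries of a genotype stand for different mice is not said in the labels. The p-values therefore describe the spread between these libraries, which may be technical.

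In cells with little sterol, SCAP carries the SREBP proteins out of the endoplasmic reticulum for cleavage, and the INSIG proteins hold them back when sterol is plentiful. SREBP-2 mainly drives the enzymes of sterol synthesis and SREBP-1 those of fatty acid synthesis. Excess sterol is sensed through oxysterols by the LXR nuclear receptors, whose known targets include Abca1, Abcg1, Apoe, Srebf1 and Mylip. In the adult brain, astrocytes make most of the apolipoprotein E particles that carry cholesterol to neurons, oligodendrocytes put most of the cholesterol into myelin, and neurons turn the excess into 24-hydroxycholesterol.

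Reads assigned to genes numbered between 17524594 and 22447658 per library. Levels are read counts relative to library size (CPM) scaled by TMM, and differences are log2 fold changes of PELP1 FBKO minus FLOXED with their standard error (SE). Pelp1 itself read 26.7 and 26.2 CPM in the FLOXED libraries against 17.95 and 17.29 CPM in the PELP1 FBKO libraries. Its log2 fold change was -0.59 (SE 0.149), without passing the threshold of 0.05 (edgeR quasi-likelihood, adjusted p = 0.130). The tissue label was met by neuronal markers: the summed level of 9 pyramidal neuron markers lay between 5131 and 6983 CPM, and Prox1, a marker of dentate granule neurons, was counted in every library, at 25.3 and 27.0 CPM in FLOXED and 59.3 and 40.3 CPM in PELP1 FBKO.

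The enzymes of sterol synthesis lay lower in PELP1 FBKO and the genes of cholesterol efflux higher. Of 17 tested synthesis enzymes, 7 were lower and 0 higher at an unadjusted p under 0.05, where 5.55% of all tested genes were lower and 10.1% higher. Without the library PELP1 FBKO 1 that count was 0, while the 7 log2 fold changes stayed between -0.49 and -0.34. Of the 4 genes of efflux and lipoprotein particles, 3 were higher and 0 lower. Srebf1, which encodes SREBP-1, and Npc1, which encodes a transporter of the lysosomal membrane, were higher as well, and Mylip, which encodes a ligase that marks lipoprotein receptors for degradation, was lower. Over the 34 tested genes this made 5 higher and 8 lower. None of the 34 passed the threshold after adjustment over all 14978 genes, and 0 of all tested genes did (0% in either direction, edgeR quasi-likelihood), while 1509 were higher and 832 lower before adjustment, at a p under 0.05. DESeq2 called 315 genes higher and 131 lower after adjustment, and limma-voom 0 and 0.

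**Figure D1:**
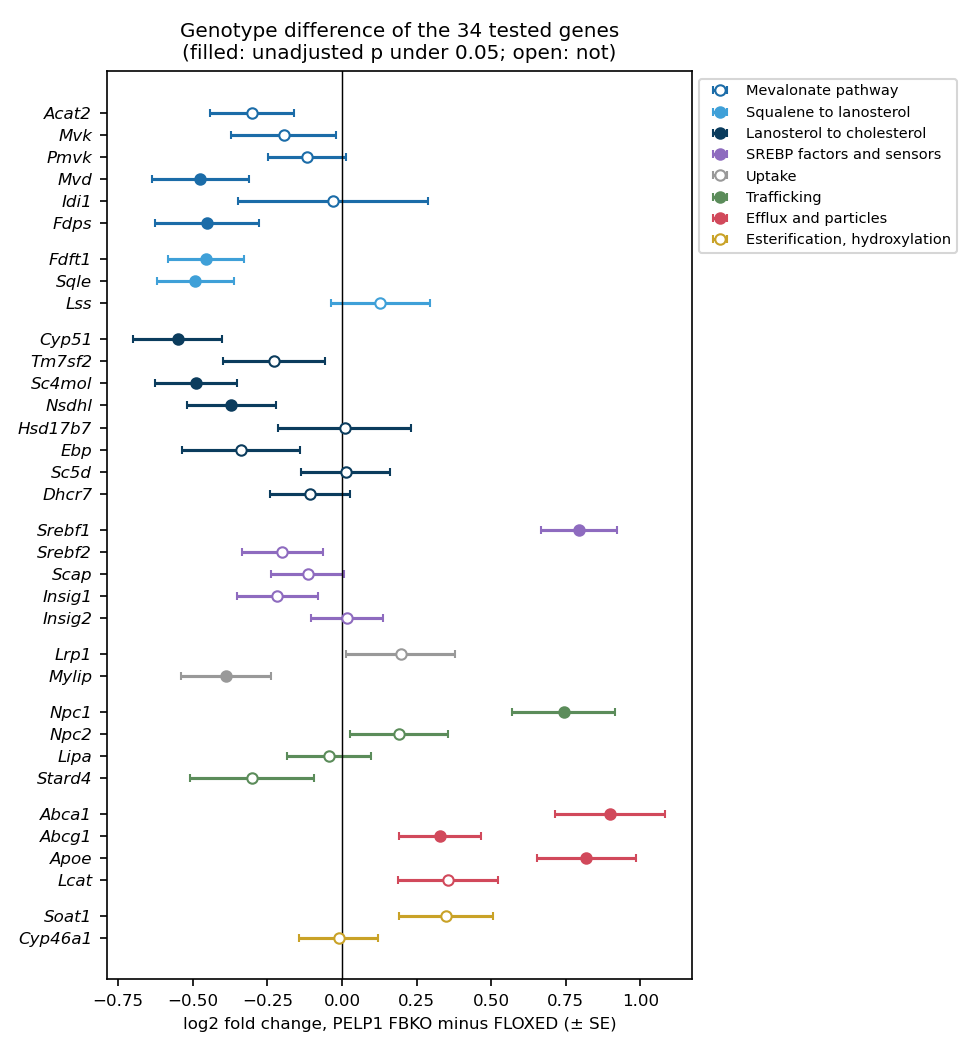
Log2 fold change of PELP1 FBKO minus FLOXED (horizontal axis) with its standard error for the 34 tested genes, grouped by role from the mevalonate pathway at the top to sterol removal at the bottom; filled points had an unadjusted p under 0.05 by edgeR's quasi-likelihood test. Of the synthesis enzymes, 14 lie left of 0 and 3 right of it, and the 4 genes of efflux and particles lie right of 0.

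The promoters are shown first, because the synthesis enzymes are known to share SREBP with the CCAAT-binding factor NF-Y as activators. The RefSeq promoter table (build GRCm38.p6) held windows for 29 of the 35 genes, 15 of them synthesis enzymes. Each window was read over the 250 bases before the start of transcription, on both strands, and a gene with several windows counted where any of them matched. A CCAAT box on the opposite strand can share bases with a GC box, and each motif was searched on its own. A CCAAT box, spelled CCAAT, was found in 14 of 15 synthesis enzymes and in 10 of the 14 other genes with a window, against 37.5% of all 27025 genes in the table. The GC box GGGCGG was also in 14 of 15 and 10 of 14, against 35.4% of genes. The strict core of the sterol regulatory element, TCACNCCAC, was found in 1 of the 29 genes, Hmgcs1, against 1.22% of genes. For 31 of the 39 windows of these genes, the bases right after the start occur in a GENCODE vM21 transcript of the gene. Distances below are from the RefSeq start. A match describes letters in a window and not a bound site.

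The windows below belong to the 4 enzymes at an unadjusted p under 0.05 that had a window, and to Abca1 on the efflux side. Abca1 has 0 CCAAT boxes in its window, as has Apoe in each of its 3. This does not hold for all genes on the higher side. Srebf1 has 1 box in each of its windows 1 and 3, and Lcat, another gene of efflux and particles, has 1. Capitals mark CCAAT boxes, which read ATTGG where they lie on the opposite strand, and each line runs 5′ to 3′ on the gene's strand. In GRCm38.p6 the windows are chr8:122443423-122443672 (- strand) for Mvd, chr5:4104698-4104947 (- strand) for Cyp51, chr8:64733579-64733828 (- strand) for Sc4mol, chrX:72918271-72918520 (+ strand) for Nsdhl and chr4:53159896-53160145 (- strand) for Abca1.
Mvd: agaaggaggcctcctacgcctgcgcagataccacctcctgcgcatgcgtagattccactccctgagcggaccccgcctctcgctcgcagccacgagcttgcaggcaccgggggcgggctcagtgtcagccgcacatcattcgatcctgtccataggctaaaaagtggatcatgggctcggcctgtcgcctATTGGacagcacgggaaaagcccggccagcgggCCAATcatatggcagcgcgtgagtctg
Cyp51: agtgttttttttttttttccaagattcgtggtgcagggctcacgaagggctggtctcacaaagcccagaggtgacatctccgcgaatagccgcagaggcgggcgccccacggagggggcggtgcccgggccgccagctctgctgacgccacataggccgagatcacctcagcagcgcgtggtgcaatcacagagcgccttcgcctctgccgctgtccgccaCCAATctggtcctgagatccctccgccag
Sc4mol: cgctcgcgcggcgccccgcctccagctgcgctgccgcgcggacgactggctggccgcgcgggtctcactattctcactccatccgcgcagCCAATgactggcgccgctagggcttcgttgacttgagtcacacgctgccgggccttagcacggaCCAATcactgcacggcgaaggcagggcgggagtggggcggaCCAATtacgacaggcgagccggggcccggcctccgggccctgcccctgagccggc
Nsdhl: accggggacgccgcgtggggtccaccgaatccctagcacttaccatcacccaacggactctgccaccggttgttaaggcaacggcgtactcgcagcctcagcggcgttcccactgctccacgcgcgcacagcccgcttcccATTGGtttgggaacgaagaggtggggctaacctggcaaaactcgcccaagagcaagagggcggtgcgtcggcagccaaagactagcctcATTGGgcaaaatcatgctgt
Abca1: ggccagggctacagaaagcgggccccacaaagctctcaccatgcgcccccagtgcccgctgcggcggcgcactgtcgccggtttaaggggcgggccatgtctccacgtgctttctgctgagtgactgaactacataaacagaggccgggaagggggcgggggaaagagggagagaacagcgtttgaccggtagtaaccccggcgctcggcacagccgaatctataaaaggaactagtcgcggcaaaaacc

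Mvd held 2 CCAAT boxes, 56 and 23 bases before the start, and Cyp51 held 1, 25 bases before it. Sc4mol held 3, at 156, 92 and 51 bases, and Nsdhl 2, at 105 and 16 bases. Mvk, whose window held 5 boxes, had an unadjusted p of 0.296 (edgeR quasi-likelihood).

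In the mevalonate pathway, which builds isoprenoid units from acetyl-CoA, the 6 tested enzymes had log2 fold changes between -0.47 and -0.03, with a median of -0.25. Mvd, the decarboxylase that makes isopentenyl diphosphate, read 21.5 and 19.0 CPM in the FLOXED libraries against 14.6 and 14.5 CPM in the PELP1 FBKO libraries. Both PELP1 FBKO libraries were below both FLOXED libraries, and the log2 fold change was -0.47 (SE 0.162, edgeR quasi-likelihood, adjusted p = 0.223). Fdps, which makes farnesyl diphosphate, the last shared precursor of sterols and other isoprenoids, lay at 17.7 and 15.5 against 11.4 and 12.9 CPM. The libraries again did not overlap, with a log2 fold change of -0.45 (SE 0.175, edgeR quasi-likelihood, adjusted p = 0.269).

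Acat2, the cytosolic thiolase at the entry to the pathway, lay at 34.05 and 32.9 against 26.2 and 28.2 CPM. It differed by -0.30 (SE 0.142) at an unadjusted p of 0.0662 (edgeR quasi-likelihood). Of its 50-base stretches, 39.1% also occur in transcripts of the neighbouring paralog Acat3, so its counts are uncertain. Pmvk, which phosphorylates phosphomevalonate, lay at 43.7 and 42.1 against 38.9 and 40.2 CPM, a small difference of -0.12 (SE 0.131). Mvk, mevalonate kinase, overlapped between the genotypes, with 25.0 and 20.2 against 21.1 and 18.3 CPM. Idi1, the isomerase of isopentenyl diphosphate, had only 36, 37, 41 and 37 reads, with a log2 fold change of -0.03 (SE 0.318). Of the 50-base stretches of Idi1, 25.3% occur in transcripts of other genes, as do 26.2% of those of Fdps.

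Hmgcs1, the cytosolic HMG-CoA synthase, is listed at 0 reads in each of the 4 libraries, which would allow at most 0.134 to 0.171 CPM. Among its 50-base stretches, 11.6% occur in annotated transcripts of another gene, and 12.1% of its exonic bases overlap another gene in GENCODE vM21. Why it is listed at 0 was not tested, and no level is drawn from it.

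The steps from farnesyl diphosphate to lanosterol held some of the smallest p-values among the enzymes. Sqle, squalene monooxygenase, which adds the oxygen that becomes the sterol hydroxyl, read 82.1 and 89.1 CPM in the FLOXED libraries against 58.9 and 63.0 CPM in the PELP1 FBKO libraries. Every PELP1 FBKO library was below every FLOXED library, a fold of 0.711 and a log2 fold change of -0.49 (SE 0.127, edgeR quasi-likelihood, adjusted p = 0.137). Fdft1, squalene synthase, commits farnesyl diphosphate to sterols. It lay at 60.4 and 57.7 against 43.5 and 42.6 CPM, with libraries of a genotype close together, and differed by -0.46 (SE 0.127, edgeR quasi-likelihood, adjusted p = 0.153). Of the exonic bases of Fdft1, 18.3% overlap other genes, which include the cathepsin gene Ctsb. No source used here gives the strand setting of the counting. Of the 50-base stretches of Fdft1, 26.5% occur in transcripts of other genes, and 17.2% in those of Ctsb. Lss, lanosterol synthase, which closes the sterol rings, was the exception of the 3. It lay at 12.03 and 12.3 against 13.1 and 13.5 CPM, slightly higher in both PELP1 FBKO libraries, at 0.13 (SE 0.167, edgeR quasi-likelihood, adjusted p = 0.758).

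Among the 8 tested enzymes that turn lanosterol into cholesterol, 3 were lower and 0 higher at an unadjusted p under 0.05. Of all tested genes, 5.55% were lower and 10.1% higher at that p. Cyp51, lanosterol demethylase, had the most negative log2 fold change of the 34 genes. It read 73.2 and 82.0 CPM in the FLOXED libraries against 47.6 and 58.3 CPM in the PELP1 FBKO libraries, and differed by -0.55 (SE 0.148, edgeR quasi-likelihood, adjusted p = 0.144). Sc4mol, the methylsterol monooxygenase that acts on the C4 methyl groups, lay at 105.0 and 102.8 against 67.6 and 80.5 CPM. The genotypes were apart in both genes, with PELP1 FBKO 1 the lowest library, and Sc4mol differed by -0.49 (SE 0.137, edgeR quasi-likelihood, adjusted p = 0.156). Nsdhl, the dehydrogenase of the same C4 demethylation complex, lay at 30.6 and 27.5 against 21.7 and 23.3 CPM, a log2 fold change of -0.37 (SE 0.151, edgeR quasi-likelihood, adjusted p = 0.290).

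Hsd17b7, the ketoreductase that completes this complex, did not follow: it lay at 16.2 and 24.1 against 22.7 and 17.9 CPM, with the genotypes overlapping and a log2 fold change of 0.01 (SE 0.224). Ebp, the sterol isomerase, lay at 22.3 and 20.5 against 14.1 and 19.8 CPM, at -0.34 (SE 0.197). The gap of Ebp came mostly from PELP1 FBKO 1: without that library the log2 fold change was -0.13. Tm7sf2, a sterol reductase, differed by -0.23 (SE 0.172). Dhcr7 and Sc5d, the reductase and the desaturase that work at the end of the pathway, differed by -0.11 (SE 0.135) and 0.01 (SE 0.150).

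Over the 17 tested synthesis enzymes the median log2 fold change was -0.30, beside 0.00 over all tested genes. Both PELP1 FBKO libraries lay below both FLOXED libraries in 12 of the 17 and above them in 1, where 23.0% and 25.4% of all tested genes did. Relative to each gene's FLOXED mean, the median enzyme stood at 0.03 and -0.03 in FLOXED 1 and FLOXED 2 and at -0.36 and -0.25 in PELP1 FBKO 1 and PELP1 FBKO 2, on a log2 scale. Leaving out PELP1 FBKO 1 took the count of 7 enzymes to 0, with the median log2 fold change at -0.27. The count was 5 without PELP1 FBKO 2, 4 without FLOXED 1 and 7 without FLOXED 2, and the median then lay between -0.36 and -0.28. Each of these fits leaves 1 genotype with a single library, which is assumed to vary like the pair of the other genotype, so that a lost p there does not show a smaller difference.

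**Figure D2:**
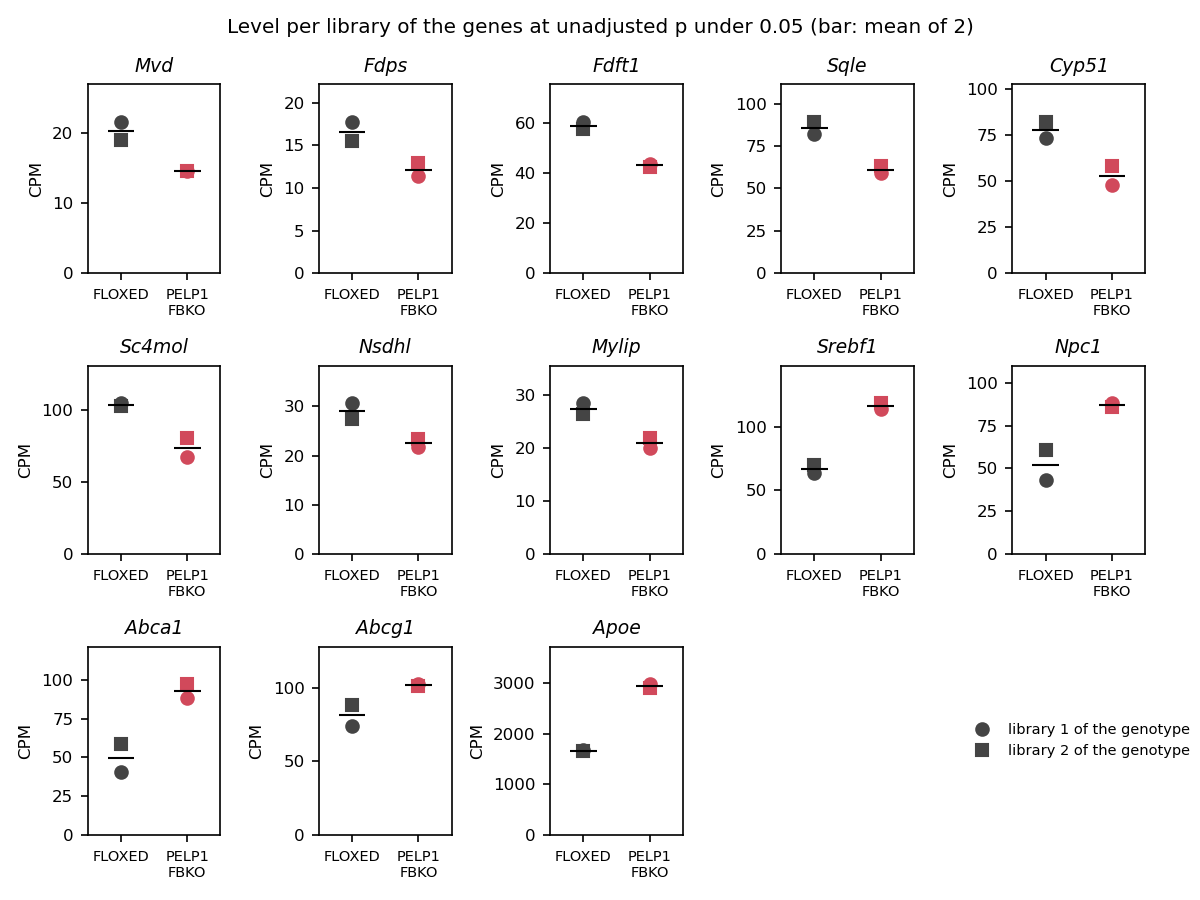
TMM-scaled CPM (vertical axes, each from 0) in the FLOXED (grey) and PELP1 FBKO (red) libraries for the 13 genes with an unadjusted p under 0.05; circles and squares are libraries 1 and 2 of a genotype and bars their mean. The 8 panels from Mvd to Mylip are lower in PELP1 FBKO and the 5 from Srebf1 to Apoe higher. The genotypes overlap in no panel, which follows largely from choosing the genes by that p. Of all tested genes, 25.4% lay higher and 23.0% lower in PELP1 FBKO without overlap.

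Among the 5 genes of the SREBP factors and their regulators, Srebf1 alone had an unadjusted p under 0.05, and 0 were lower at that p. Of all tested genes, 10.1% were higher and 5.55% lower at that p. Srebf1 read 63.8 and 70.1 CPM in the FLOXED libraries against 113.7 and 118.6 CPM in the PELP1 FBKO libraries. All PELP1 FBKO values were above all FLOXED values, and each pair lay close together. The fold was 1.73 and the log2 fold change 0.79 (SE 0.127), with the smallest p among the 34 genes (edgeR quasi-likelihood, adjusted p = 0.0628). Of 16 alternatives, 10 put it past the threshold, with adjusted p between 4.54e-05 and 0.226. Counts per gene do not separate the transcripts for SREBP-1a and SREBP-1c.

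Srebf2, which encodes SREBP-2, had 156.6 and 174.6 against 152.0 and 136.2 CPM. Its log2 fold change was -0.20 (SE 0.136, edgeR quasi-likelihood, adjusted p = 0.514), and -0.30 to -0.12 with 1 library left out. Insig1, itself a known SREBP target, lay at 50.6 and 45.1 against 40.8 and 41.5 CPM, at -0.22 (SE 0.135), and -0.31 to -0.13 with 1 library left out. Scap, the SREBP escort, differed by -0.12 (SE 0.122). Insig2 had nearly the same level in the 4 libraries, between 67.7 and 69.6 CPM, with a log2 fold change of 0.02 (SE 0.122).

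The genes of efflux and lipoprotein particles were the highest in PELP1 FBKO relative to FLOXED, with a median log2 fold change of 0.59. Apoe, the main apolipoprotein of the brain, read 1684 and 1649 CPM in the FLOXED libraries against 2974.5 and 2905 CPM in the PELP1 FBKO libraries. The libraries of a genotype differed little and the genotypes were far apart, a fold of 1.76 and a log2 fold change of 0.82 (SE 0.166, edgeR quasi-likelihood, adjusted p = 0.0880). Abca1, the transporter that loads cholesterol onto apolipoprotein E, lay at 40.4 and 58.9 against 88.3 and 97.2 CPM. Its log2 fold change was 0.90 (SE 0.185), the largest of the 34 genes (edgeR quasi-likelihood, adjusted p = 0.0908). Over the 16 alternatives the adjusted p ranged from 3.06e-06 to 0.461 for Apoe and from 0.00100 to 0.248 for Abca1, and passed in 7 and 9 of them.

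Abcg1, which exports cholesterol to formed particles, lay at 73.9 and 88.4 against 102.4 and 101.3 CPM, a log2 fold change of 0.33 (SE 0.137, edgeR quasi-likelihood, adjusted p = 0.305). Its unadjusted p of 0.0444 became 0.123 when FLOXED 1 was left out, with a log2 fold change of 0.20. It became 0.215 or 0.164 when PELP1 FBKO 1 or PELP1 FBKO 2 was, with log2 fold changes of 0.30 and 0.34, close to the value from all libraries. With 1 library left out, the log2 fold change of Apoe lay between 0.78 and 0.84 and that of Abca1 between 0.65 and 1.18. Lcat, which esterifies cholesterol on particles, lay at 29.7 and 26.0 against 31.5 and 39.7 CPM. Its log2 fold change of 0.36 (SE 0.168) had an unadjusted p of 0.0674 (edgeR quasi-likelihood) and fell to 0.18 without PELP1 FBKO 2. At an adjusted p under 0.10, 3 of the 34 genes were higher (Srebf1, Apoe and Abca1) and 0 lower, where 1.56% and 0.394% of all tested genes were.

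Astrocyte and oligodendrocyte markers were higher in the same libraries. Of 12 astrocyte markers, 8 lay higher and 0 lay lower at an unadjusted p under 0.05 (10.1% and 5.55% of all tested genes), with a median log2 fold change of 0.54, and their summed level lay between 3956 and 4880 CPM in FLOXED and between 6188 and 6653 CPM in PELP1 FBKO. Of 12 oligodendrocyte markers, 11 were higher, with a median of 0.81, and their sum lay between 3159 and 4055 against 6269 and 6746 CPM. Of 10 microglia markers, 2 were higher and 1 lower, beside the same shares of all genes. Their median log2 fold change was 0.27, with 9 positive and 1 negative, and their sums overlapped (700 to 775 against 772 to 1086 CPM). Of 8 endothelial markers 3 were higher (sum 144 to 199 against 247 to 266 CPM). Some neuronal markers were higher too, with 0 lower: 4 of 8 interneuron markers (Gad1, Gad2, Slc32a1 and Dlx1, list median 0.35) and 3 of 6 granule neuron markers (Prox1, Dsp and Tdo2, list median 0.43). No marker of these lists was at 0 reads in any library. In bulk tissue, more cells of a type and more RNA per cell cannot be told apart, and the part of these markers in the values of Apoe, Abca1, Srebf1 and Npc1 was not tested. The synthesis enzymes lay on the other side in the same libraries. Of 9 pyramidal neuron markers, 3 were lower and 0 higher, with a median log2 fold change of -0.35, and 7 of the 9 were negative. Relative to the FLOXED means their median stood at -0.14 in PELP1 FBKO 1 and -0.60 in PELP1 FBKO 2. Their sums overlapped (6080 to 6509 against 5131 to 6983 CPM), with most of each sum from Camk2a, whose log2 fold change was 0.09. Their part in the lower values of the enzymes was not tested either. Of 6 tested choroid plexus markers, 1 was lower and 0 higher. That 1, Ttr, lay at 323.9 CPM in FLOXED 1 and between 21.4 and 67.5 CPM in the other libraries, and the other 5 tested did not show this pattern. Kcne2, left out by the count filter, had 30 reads in FLOXED 1, 5 in FLOXED 2, and 2 and 7 in the PELP1 FBKO libraries. Otx2, left out too, had 7 and 10 reads in FLOXED and 9 and 46 in PELP1 FBKO.

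**Figure D3:**
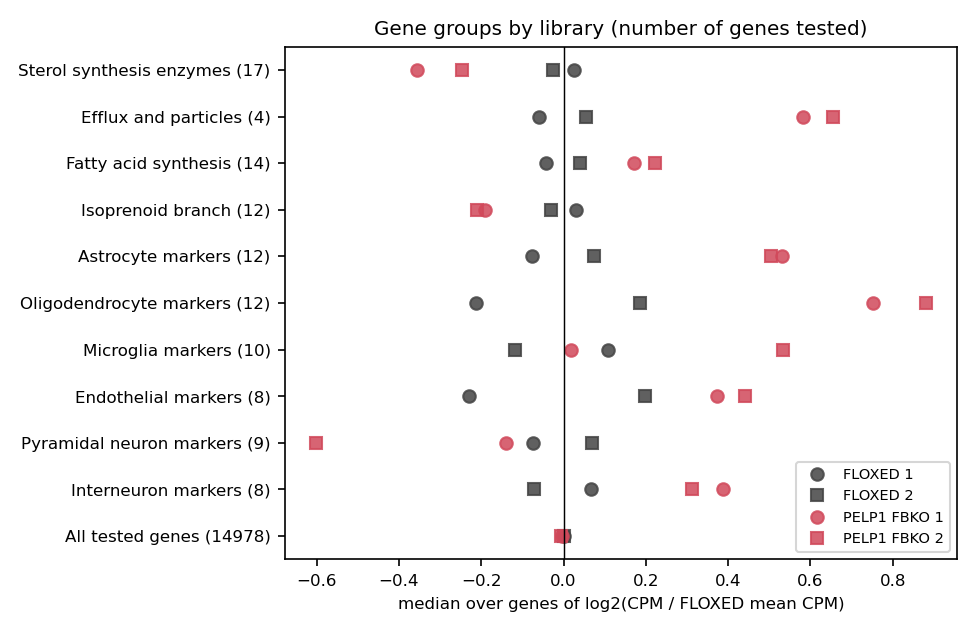
Median over the genes of a group of log2(CPM divided by the gene's FLOXED mean) on the horizontal axis, for each of the 4 libraries (grey FLOXED, red PELP1 FBKO; circle library 1, square library 2). Synthesis enzymes stand at -0.36 and -0.25 in PELP1 FBKO and efflux genes at 0.58 and 0.66, on the side of the astrocyte markers (0.53 and 0.51) and oligodendrocyte markers (0.75 and 0.88).

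In lysosomal and cytosolic trafficking, the genotypes were apart only in Npc1 among the 4 genes. Of all tested genes, 25.4% lay higher and 23.0% lower in PELP1 FBKO without overlap. Npc1, which moves cholesterol through the lysosomal membrane, read 43.2 and 60.7 CPM in the FLOXED libraries against 88.1 and 85.9 CPM in the PELP1 FBKO libraries. The fold was 1.67 and the log2 fold change 0.74 (SE 0.173, edgeR quasi-likelihood, adjusted p = 0.111), and 8 of 16 alternatives put its adjusted p past the threshold (0.00601 to 0.266). With 1 library left out, the log2 fold change of Npc1 lay between 0.52 and 0.999. Npc2, the soluble lysosomal carrier that hands cholesterol to NPC1, overlapped, with 91.9 and 75.2 against 84.1 and 106.6 CPM. Its log2 fold change was 0.19 (SE 0.165). Lipa, the acid lipase that frees cholesterol from its esters, lay between 32.7 and 36.7 CPM in the 4 libraries. Stard4, a cytosolic sterol carrier, differed by -0.30 (SE 0.208) at a low level of 8.33 to 12.5 CPM. The difference was -0.11 without FLOXED 2 and -0.48 without FLOXED 1.

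In uptake, Mylip lay at 28.5 and 26.5 against 20.04 and 21.99 CPM. Both PELP1 FBKO libraries were lower, by a log2 fold change of -0.39 (SE 0.151, edgeR quasi-likelihood, adjusted p = 0.272). Its unadjusted p of 0.0333 became 0.0842 when FLOXED 1 was left out, and 0.198 or 0.0876 when PELP1 FBKO 1 or PELP1 FBKO 2 was (edgeR quasi-likelihood). The log2 fold changes of these fits, each with a single library in 1 genotype, were -0.33, -0.34 and -0.45. Lrp1, a large receptor for apolipoprotein E, lay at 263 and 364 against 383 and 335 CPM. The spread within FLOXED was wider than the difference between genotypes, which was 0.20 (SE 0.183). In removal, Soat1, which stores cholesterol as esters, lay at 19.7 and 20.8 against 23.8 and 27.8 CPM, at 0.35 (SE 0.158) and an unadjusted p of 0.0589 (edgeR quasi-likelihood). Cyp46a1, the neuronal 24-hydroxylase, lay at 161 and 153 against 166 and 146 CPM, with a log2 fold change of -0.01 (SE 0.133).

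Per length of transcript, the levels of these genes spanned a wide range. Apoe stood highest, with a mean of 1636 CPM per kb over the 4 libraries, followed by Cyp46a1 at 73.9. Pmvk (34.5 CPM per kb), Srebf2 (30.5) and Sc4mol (30.0) came next, and their libraries overlapped, so that their order is not firm. Idi1 (0.614 CPM per kb) and Lss (1.82) stood lowest. Lengths were those of the longest GENCODE vM21 transcript, which may not be the one made in this tissue.

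**Figure D4:**
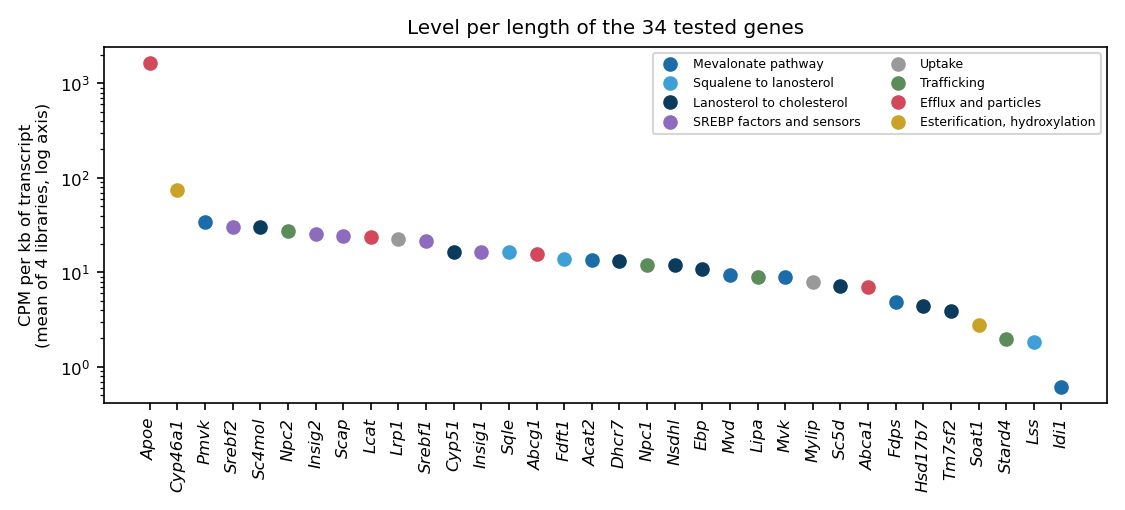
Mean level over the 4 libraries per kb of the longest transcript (vertical log axis, CPM per kb) for the 34 tested genes in falling order, coloured by role. Apoe at 1636 stands far above Cyp46a1 at 73.9, and the synthesis enzymes run from 34.5 (Pmvk) to 0.614 (Idi1).

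Other genes of the pathway were described from lists by function. Of 20 LXR receptors and other lipoprotein, efflux and uptake genes, 5 lay higher and 1 lay lower at an unadjusted p under 0.05, where 10.1% and 5.55% of all tested genes did, with a median log2 fold change of 0.10. Pltp, the phospholipid transfer protein and a known LXR target, read 22.6 and 31.1 CPM in the FLOXED libraries against 58.3 and 57.0 CPM in the PELP1 FBKO libraries, with a log2 fold change of 1.10 (SE 0.174, edgeR quasi-likelihood, adjusted p = 0.0628). Apod, an apolipoprotein of glia, lay at 156 and 177 against 332 and 552 CPM, at 1.41 (SE 0.234). Scarb1, a receptor for high-density lipoprotein, was the 1 lower gene, with 45.4 and 39.6 against 29.7 and 27.9 CPM and a log2 fold change of -0.56 (SE 0.145). The LXR receptor genes themselves, Nr1h2 and Nr1h3, differed by -0.16 (SE 0.139) and 0.08 (SE 0.256); they were named after their values were seen.

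Of 14 genes of fatty acid synthesis, a pathway that SREBP-1 governs, 5 were higher and 0 lower at that p (10.1% and 5.55% of all tested genes), and 9 did not reach it. Their median log2 fold change was 0.20. Acacb, an acetyl-CoA carboxylase, lay at 2.57 and 4.98 against 7.80 and 9.80 CPM, a log2 fold change of 1.21 (SE 0.318). The elongase gene Elovl5 and the desaturase gene Fads2 differed by 0.42 (SE 0.133) and 0.37 (SE 0.124), and the other 2 were Scd2 and Mid1ip1. Some enzymes, named after their values were seen, were near 0. Fasn differed by 0.08, Acaca by 0.09, Acly by -0.04, Acss2 by 0.09, Elovl6 by -0.03 and Me1 by -0.09. Scd1, Thrsp and Fads1, which did not reach that p either, differed by 0.36, 0.26 and 0.13. Of the 14 genes, 11 had positive log2 fold changes and 3 negative. Of 12 genes of the isoprenoid branch, which draws on farnesyl diphosphate for protein prenylation, dolichol and ubiquinone, 2 were lower and 0 higher, against the same shares of all genes. All 12 had negative log2 fold changes, with a median of -0.15, and the prenyltransferase subunit gene Rabggta lay at 62.6 and 58.9 against 44.5 and 47.0 CPM.

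Of 16 oxysterol enzymes and sterol transfer proteins, 2 were higher and 1 lower, near the 10.1% and 5.55% of all tested genes. Ch25h, the 25-hydroxylase of activated macrophages, read 5.02 and 7.15 CPM in the FLOXED libraries against 0.771 and 2.89 CPM in the PELP1 FBKO libraries, with a log2 fold change of -1.75 (SE 0.508, edgeR quasi-likelihood, adjusted p = 0.164). Cyp27a1, the mitochondrial 27-hydroxylase, lay at 2.34 and 2.63 against 4.53 and 4.70 CPM. Both are low-level transcripts, and their libraries did not overlap. None of the 11 genes of SREBP processing and sterol regulation in the endoplasmic reticulum, which include the proteases Mbtps1 and Mbtps2, had an unadjusted p under 0.05, and their median was 0.02.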

How the data were processed

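Hippocampal RNA was sequenced as 50-base single reads. Each deposited file lists, per gene symbol, whole-number read counts that the authors had not normalized, as the values show. Per the submitters' processing notes, CASAVA 1.8.2, TopHat2 2.0.8b and HTSeq were used with the mm9 build. A human build is named in the series text, although the symbols are of mouse. For the counting, strand setting and annotation are not given in the sources used here. Not-unique alignments (38.5% to 47.7% of the files' summed entries, summary rows included) were not counted. Summary rows, 14.7% to 15.7% of uniquely aligned reads in no gene and about 1% ambiguous, stayed out.

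Libraries of a genotype differed beyond sampling noise (chi-square per degree of freedom 23.3 and 17.4) and were kept separate. Genotypes were compared over 14978 genes with edgeR 4.0.16 in R 4.3.3 (TMM, filterByExpr, quasi-likelihood F test, Benjamini-Hochberg adjustment, threshold 0.05, common dispersion 0.0201). SEs were derived from the F statistic. The fit was tested on simulated data. Alternatives were DESeq2 1.42.0, limma-voom 3.58.1, the exact test, robust fitting, other scaling and filters, a replicate block and leaving out each library. Added after seeing the data were length and GC offsets (98.9% of tested genes) and a crossed block. A floor of 3 reads covers counting error only.

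Members and lists were chosen with earlier results of these data known. By rule, all members were accounted for, those at an unadjusted p under 0.05 and the highest of each role in detail, and up to 3 genes of each other list by smallest p. Lengths, shared 50-base stretches and exon overlaps came from GENCODE vM21, and promoters from RefSeq (GRCm38.p6), a newer build than that of the counts. Sharing was searched in annotated transcripts only.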

Additional observations from a re-analysis of the deposited data

How the results depend on the processing

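The number of genes called moved widely between tests. After adjustment, genes higher and lower over the whole table numbered 0 and 0 in the quasi-likelihood fit and by limma-voom. They were 315 and 131 by DESeq2, 562 and 197 by the exact test, 71 and 15 with robust fitting, 13 and 4 with DESeq2's size factors, 37 and 5 with upper-quartile factors, 20 and 3 with library totals, 278 and 81 without a count filter, 39 and 4 where each library had to hold 50 reads, and 217 and 59 with length and GC offsets. Leaving out a library gave 0 to 457 higher and 0 to 324 lower. Among the 34 genes, those higher after adjustment numbered 4 by DESeq2, the exact test, without a filter and with the offsets, and 1 with robust fitting. They numbered 0 to 4 when a library was left out. Those lower numbered 3 by the exact test and 1 with the offsets. The smallest adjusted p of the quasi-likelihood fit was 0.0501. The synthesis enzymes lower at an unadjusted p under 0.05 (7) numbered 0 to 7 when a library was left out, and their median log2 fold change (-0.30) lay between -0.36 and -0.27. The median of the efflux genes (0.59) was 0.67 with the offsets and 0.55 to 0.64 without a library. The cause was not tested.

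The replicate number marks no shared animal or batch in the labels. A replicate block gave 387 genes higher and 179 lower, with 3 of the 34 higher (Srebf1, Npc1 and Abca1). The deviations of same-numbered libraries were weakly and negatively correlated (r = -0.12 across 14978 genes, which are not independent replicates). With the numbers crossed the counts were 223 and 91, with 4 of the 34 higher. Of the single-gene values under the alternatives, Pelp1 included, 501 kept their direction and side of the threshold, 39 passed the threshold where the quasi-likelihood fit did not, and 19 changed sign, each at an unadjusted p of 0.05 or above on both sides.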
